A study of Mus musculus with 2 samples.

Results

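Fc gamma receptors, the receptors of leukocytes for immunoglobulin G, were followed across the gated cell classes of mouse livers with and without a growing colon tumor. The 5 genes were chosen by symbol and not by their values: the activating receptor genes Fcgr1, Fcgr3 and Fcgr4, the inhibitory receptor gene Fcgr2b, and Fcer1g, which encodes the signaling gamma chain. All 5 were found among the 28692 genes of the count matrices, and all 5 had unique molecular identifiers (UMIs, each standing for 1 captured transcript) in both libraries.

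Activating Fc gamma receptors bind the constant part of antibodies that coat a target and signal through the gamma chain, whose ITAM motif recruits the kinase Syk. They set off phagocytosis, cytotoxicity and cytokine release. Fcgr2b carries an ITIM motif in its own tail, which recruits phosphatases such as Inpp5d and dampens those signals. Myeloid cells are known to carry activating and inhibitory receptors together, B cells mainly Fcgr2b, natural killer (NK) cells mainly Fcgr3, and the sinusoidal endothelium of the liver much Fcgr2b, which clears small immune complexes.

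The data came from 2 droplet single-cell libraries of liver mononuclear cells from C57BL/6 mice, 1 per group, each a pool of 3 mice taken on day 14. The group called MC38 carried MC38, a mouse colon adenocarcinoma line, in the liver after intrasplenic injection of 500000 cells with splenectomy at once; the control group had received PBS into the spleen and is labelled as free of tumor. The protocol, the same text for both groups, also names a subcutaneous injection of 3000000 MC38 cells, and the sample titles read SC for the control and SC+liver for MC38. The sources used here leave unstated whether control mice carried a subcutaneous tumor or lost their spleens. Hepatocytes were to be removed by slow centrifugation before the density gradient, yet 81 control and 3633 MC38 barcodes passed the hepatocyte gate.

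Depth was 91617457 UMIs over 14258 barcodes for the control and 114421875 UMIs over 19822 barcodes for MC38. Filtering left 3439 control barcodes (24.1%) and 11855 MC38 barcodes (59.8%), because 74.8% and 33.3% of barcodes were over the limit of 10% mitochondrial UMIs. Classes were gated barcode by barcode on fixed marker genes, none of them a member, which placed 82.0% and 85.9% of the kept barcodes. The libraries shared 63 barcode sequences, of which 14 control and 38 MC38 barcodes were kept. Levels are UMIs of a gene scaled to the class total as counts per 1000000 UMIs (CPM). Each group is 1 library, so differences carry no p-value and could not be checked in replicates. The ranges in brackets are exact 95% intervals that cover counting error only. A member is called higher or lower when its level differed at least 1.5-fold between libraries with an interval that leaves out no difference, among genes measured with 10 or more UMIs over both libraries.

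The receptor genes separated the classes. Fcgr1, Fcgr3, Fcgr4 and Fcgr2b were all present in monocytes, macrophages and Kupffer cells, the resident macrophages of the liver. NK cells, gated together with type 1 innate lymphoid cells (ILC1), held Fcgr3 alone of the activating receptors above a few UMIs, B cells held Fcgr2b, and endothelial cells held Fcgr2b. The gamma chain gene Fcer1g was abundant in monocytes, macrophages, Kupffer cells, neutrophils, mast cells or basophils, cDC2, pDC and NK cells, low in cDC1 and mature dendritic cells, and near absent from B cells.

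**Figure D1:**
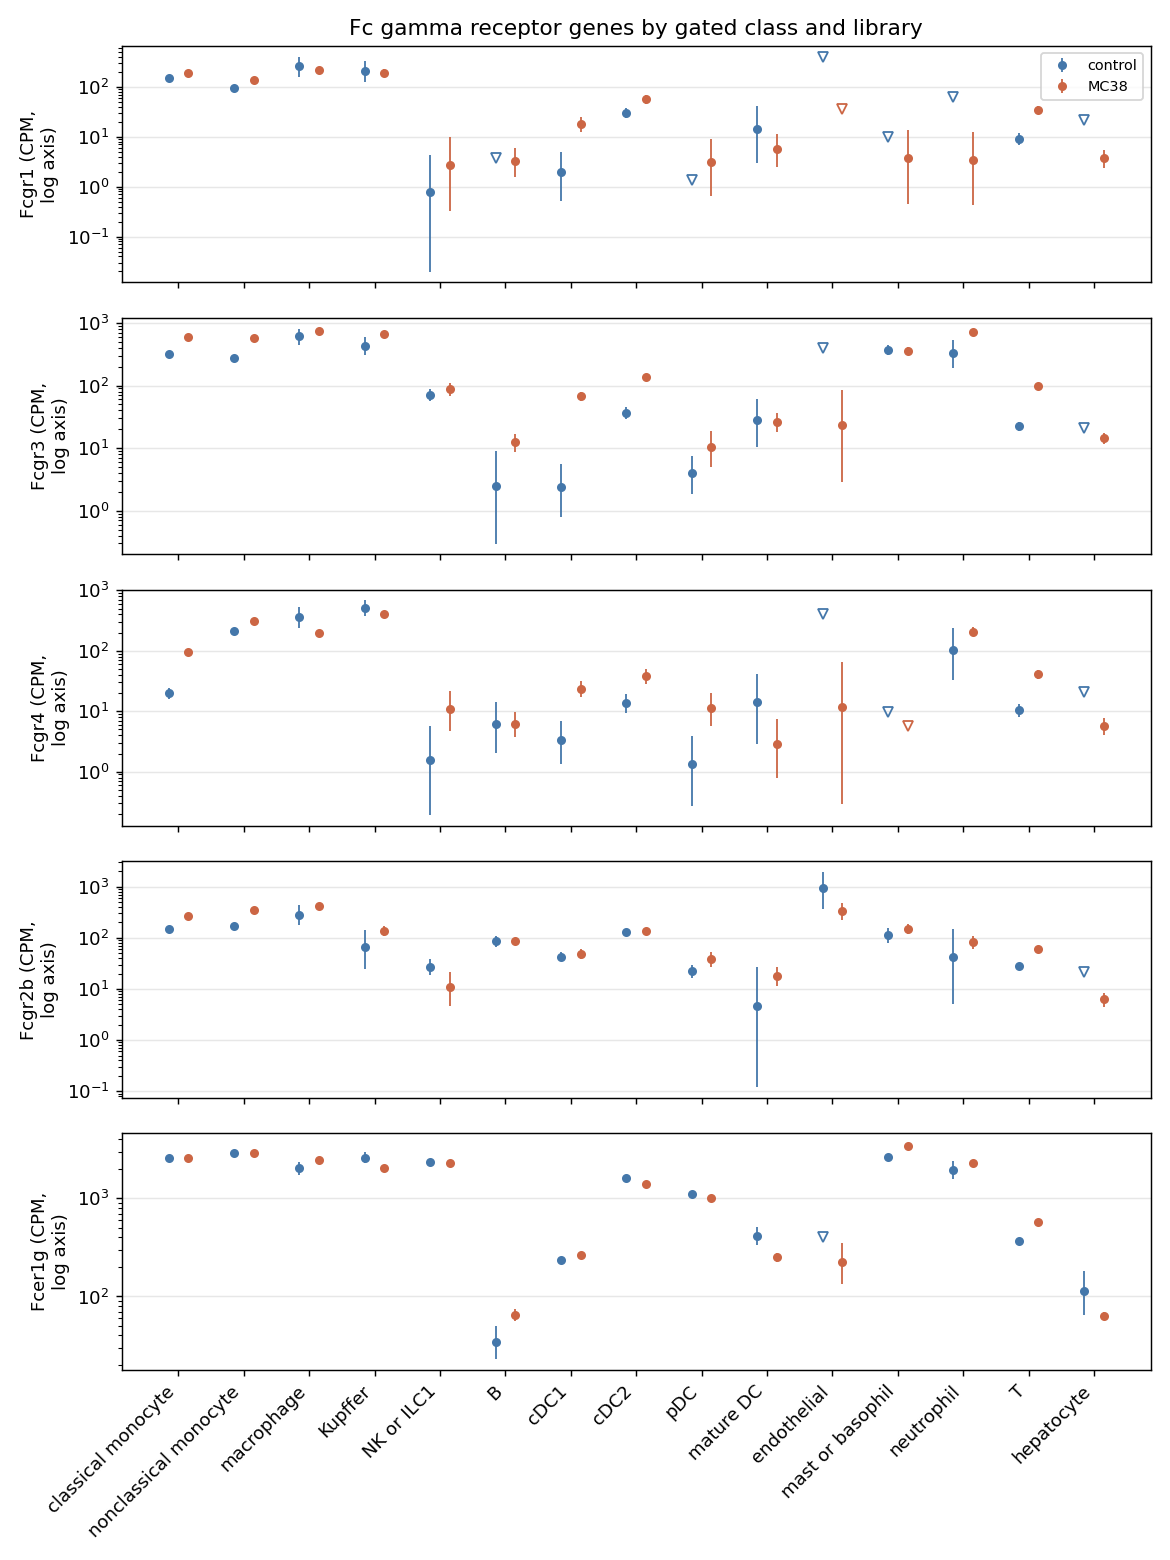
Level of each gene (CPM, log axis) in 15 gated classes, with the control library in blue and the MC38 library in orange; bars are exact 95% counting intervals and an open triangle marks the level that 3 UMIs would give where none was counted. Fcgr1 and Fcgr3 are high in the 4 monocyte and macrophage classes, as is Fcgr4 except in control classical monocytes (20.0 CPM), whereas Fcgr2b is also high in endothelial cells and Fcer1g in NK, cDC2, pDC and mast or basophil classes.

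Droplets also pick up RNA of other cells, so T cells and hepatocytes, which should hold little of these genes, served as the gauge. In the control library T cells stood at 9.04 CPM of Fcgr1, 22.2 of Fcgr3, 10.5 of Fcgr4 and 28.1 of Fcgr2b. In the MC38 library the same gate stood at 34.0, 99.8, 40.7 and 60.5 CPM, and the 7 macrophage markers in it summed to 162 CPM in control and 581 CPM in MC38 livers, 6 of 7 of them higher and none at 0. Hepatocytes had 0 UMIs of the 4 receptors in the control library, which at 3 UMIs allows up to 21.2 CPM, and 3.72, 14.3, 5.66 and 6.25 CPM in the MC38 library. The T gate is not uniform: 9.37% of its MC38 barcodes lay in a cluster led by Ccl1, Cd209a and Trac, which mixes T cell and myeloid genes and held 493 CPM of Fcgr3. Another 10.3% lay in a cluster led by Mpo, Elane and Hist1h1b with 126 CPM of Fcgr3. Of the control gate 11.6% lay in that Mpo-led cluster, with 22.8 CPM of Fcgr3 in control. A further 8.09% lay in a cluster led by Gzmb, Xcl1 and Gzmc, with 49.8 CPM. Most of the MC38 T gate lay in T cell clusters led by Dapl1, Cd8b1 and Lef1 (38.2%) and by Ighg3, Cxcr6 and Ccl1 (30.9%). Those clusters held 46.7 and 43.9 CPM of Fcgr3, 30.8 and 19.2 CPM of Fcgr2b, 8.50 and 27.04 CPM of Fcgr4 and 6.37 and 6.76 CPM of Fcgr1 with the tumor. Their control levels were 3.27 and 3.58 CPM of Fcgr3 and 1.64 and 5.37 CPM of Fcgr2b. A level in a class that should hold little of the gene is therefore read here against both the gate and these clusters, and the part that RNA from other cells plays in any difference was not tested.

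The first comparison asks which of the 5 genes differed between the livers within a class. In classical monocytes 3 of 5 members were higher with the tumor and 0 lower, beside 9.34% of all measured genes higher and 13% lower. In nonclassical monocytes, the patrolling type, 2 of 5 were higher and 0 lower, beside 9.3% and 12%. Over monocytes and macrophages together (classical, nonclassical and macrophage gates, 756 control and 3765 MC38 barcodes), 2 of 5 were higher and 0 lower, beside 11% and 13.4%. Among Kupffer cells 1 of 5 was higher and 0 lower, beside 4.56% and 6.16%. In the T gate, the gauge above, all 5 members were higher, beside 9.64% and 6.24%. Members were lower in macrophages (Fcgr4, ratio 0.54), mature dendritic cells (Fcer1g, 0.60) and endothelial cells (Fcgr2b, 0.37). Those gates held 17, 30 and 7 control barcodes. No member was higher in them, and 4.8%, 5.56% and 4.44% of their measured genes were lower.

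Among NK or ILC1 cells 1 of 4 measured members was higher and 1 lower, beside 4.64% and 4.82%. In B cells 2 of 5 (Fcgr3 and Fcer1g) were higher and 0 lower, beside 4.77% and 6.52%. In the B cell cluster led by Igkc, Jchain and Cd79a neither was past the fold, with ratios of 2.07 (0.92 to 5.48) and 1.07 (0.81 to 1.42). Type 1 conventional dendritic cells (cDC1, the cross-presenting type) had 3 of 5 higher and 0 lower, beside 7.25% and 7.8%, and type 2 cells (cDC2) also had 3 of 5 higher and 0 lower, beside 8.35% and 8.79%. Plasmacytoid dendritic cells (pDC) had 2 of 4 measured members (Fcgr4 and Fcgr2b) higher and 0 lower, beside 4.46% and 4.84%. In the pDC cluster led by Siglech neither was past the fold, with ratios of 1.104 (0.49 to 2.31) and 1.45 (0.98 to 2.11), where the gate gave 8.57 and 1.73. Different clusters filled the monocyte gates in the 2 libraries: 78.2% of the control classical and 77.9% of the control nonclassical barcodes lay in a cluster led by Ace, Serpinb10 and Nr4a1, whose leading genes are those of nonclassical monocytes. The control classical barcodes in that cluster nevertheless held 1640 CPM of Ly6c2 and 19.2 CPM of Ace, against 345 and 505 CPM in the nonclassical barcodes there. The MC38 classical barcodes came from clusters led by F13a1, Vcan and Chil3 (36.3%) and by Spink2, Chil3 and Tgfbi (35.5%), and 69.0% of the MC38 nonclassical barcodes from a cluster led by Htra3, Axl and C1qb. The 6 classical markers in the nonclassical gate summed to 1639 CPM without and 4754 CPM with the tumor, and the 6 nonclassical markers to 2778 and 1656 CPM, so the 2 nonclassical gates do not hold the same mix. Macrophage markers summed to 245 and 917 CPM in classical monocytes (7 of 7 higher, none at 0) and to 337 and 1568 CPM in nonclassical monocytes (5 of 7 higher, 1 lower, none at 0). Their part in the differences of Fcgr3, Fcgr4 and Fcgr2b in these gates was not tested.

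**Figure D2:**
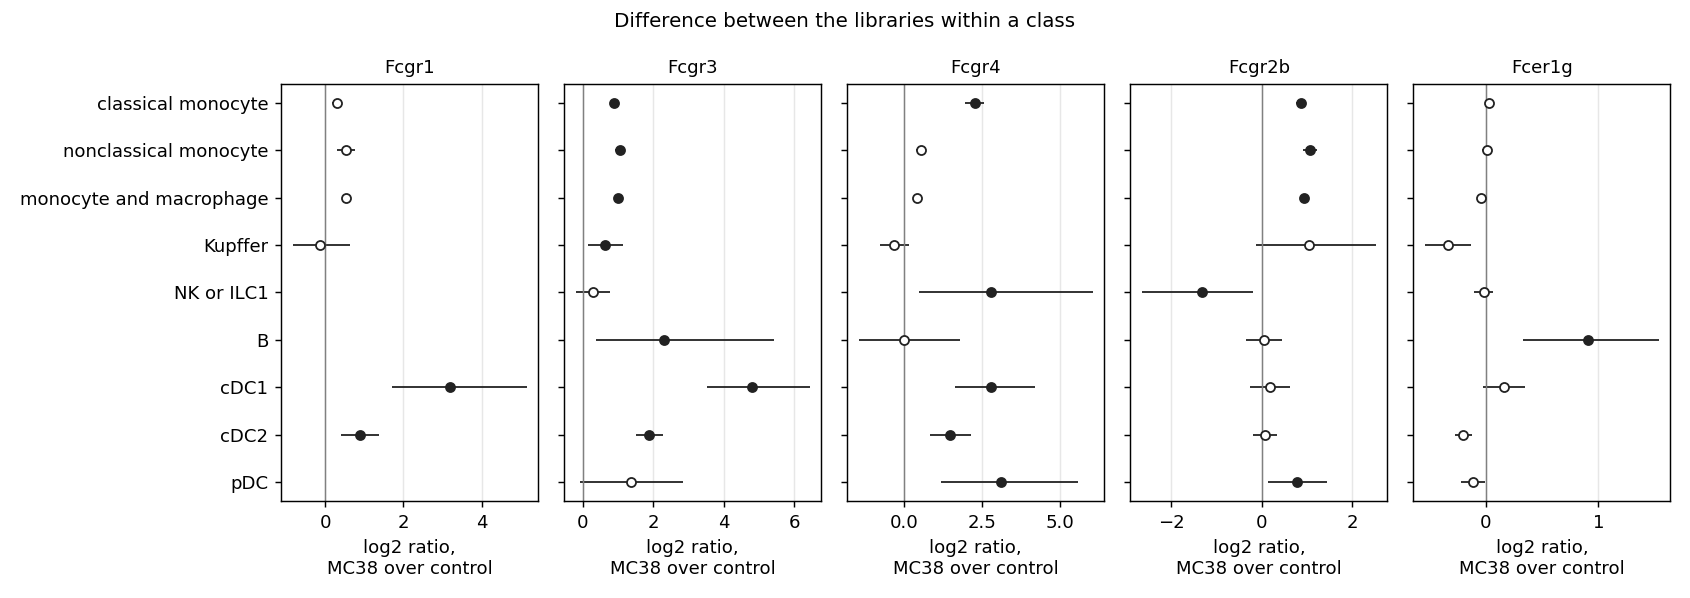
Log2 ratio of the MC38 over the control level for each gene (columns) and class (rows), with exact 95% counting intervals; filled points are at least 1.5-fold apart with an interval that leaves out 0, and genes with under 10 UMIs or with none in the control are not drawn. Fcgr3 and Fcgr2b are right of 0 in the 3 monocyte rows, at 0.87 to 1.07, whereas Fcer1g lies at 0.03, 0.01 and −0.04 there.

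Fcgr3 (ENSMUSG00000059498, GRCm38 chromosome 1, 171051174 to 171064935, minus strand) encodes the low-affinity activating receptor that is widest in its cell range. In classical monocytes it stood at 319 CPM (303 to 336) in control and 591 CPM (583 to 599) in MC38 livers, a ratio of 1.85 (1.75 to 1.95). The nonclassical level went from 279 to 577 CPM, a ratio of 2.07 (1.89 to 2.25). The tumor library was the higher in both gates, beside the macrophage markers that were also higher there. Macrophages were at 608 CPM (17 barcodes) and 746 CPM (652 barcodes), a ratio of 1.23 (0.92 to 1.68), and at 477 and 728 CPM with a mitochondrial limit of 30%.

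Over monocytes and macrophages together Fcgr3 was at 307 CPM in control and 618 CPM in MC38 livers, a ratio of 2.01 (1.93 to 2.1). Barcodes with at least 1 Fcgr3 UMI were 83.7% and 96.6%, and 28.7% and 45.6% after each barcode was thinned to 1000 UMIs. Neutrophil markers summed to 208 CPM in that class in control and 3799 CPM in MC38 livers (5 of 7 higher, 1 lower, 1 at 0 in the control), and their part in the difference was not tested. Mmp8 is among these markers and also among the leading genes of the F13a1-led monocyte cluster, so the sum is not of neutrophil RNA alone. In Kupffer cells Fcgr3 was at 434 CPM (309 to 594, 41 barcodes) and 669 CPM (609 to 733, 152 barcodes), a ratio of 1.54 (1.11 to 2.2). With a mitochondrial limit of 30%, which admitted 331 control and 469 MC38 Kupffer barcodes, the values were 349 and 544 CPM.

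Neutrophils had 728 CPM of Fcgr3 in the MC38 library (226 barcodes) and 331 CPM from 16 UMIs in the 13 control barcodes. Mast cells or basophils, which use Fcgr3 beside the IgE receptor, held 372 CPM in control and 362 in MC38 livers, so their intervals overlapped. NK or ILC1 cells held 71.1 CPM (57.2 to 87.3) and 86.9 CPM (66.9 to 111), a ratio of 1.22 (0.87 to 1.70). The control NK level lay above the T gate at 22.2 CPM. The MC38 NK level lay below the T gate at 99.8 CPM and above the T cell clusters at 46.7 and 43.9 CPM, and both lay above B cells at 2.47 and 12.3 CPM. No difference of Fcgr3 between libraries was detectable in NK cells at this depth.

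Fcgr3 gave the widest ratio in dendritic cells. In cDC1 it went from 2.41 CPM (5 UMIs in 144 barcodes) to 67.0 CPM (125 UMIs in 132 barcodes), a ratio of 27.8 (11.6 to 87.0), and in cDC2 from 36.2 to 134 CPM, a ratio of 3.72 (2.86 to 4.87). In the Xcr1-led cDC1 cluster Fcgr3 was at 5.52 and 64.1 CPM, a smaller ratio of 11.6 (5.38 to 29.9). The Cd209a-led cDC2 cluster gave a ratio of 4.23 (3.40 to 5.30). The cDC1 level in the MC38 library lay below the T gate and above the T cell clusters, with intervals that overlap those of the clusters, and the cDC2 level lay above both. In cDC1 the 7 macrophage markers summed to 50.2 and 283 CPM, 6 of 7 higher, with 1 at 0 in control and none in MC38 livers. In cDC2 they summed to 68.4 and 173 CPM, 6 of 7 higher. The part of macrophage RNA in these dendritic cell values was not tested.

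Fcgr4 (ENSMUSG00000059089, chromosome 1, 171018920 to 171029761, plus strand) encodes the activating receptor for IgG2a and IgG2b in mice. It set the monocyte types apart: in the control library it was at 20.0 CPM (16.1 to 24.6) in classical and 214 CPM (197 to 233) in nonclassical monocytes. In the MC38 library those levels were 95.6 CPM (92.4 to 99) and 311 CPM (291 to 333). Classical monocytes were thus 4.78-fold higher (3.88 to 5.97), and nonclassical monocytes had a ratio of 1.45 (1.31 to 1.62), short of the 1.5-fold limit. In the classical gate neutrophil markers summed to 259 CPM in control and 4919 CPM in MC38 livers, and macrophage markers to 245 and 917 CPM. MC38 neutrophils held 208 CPM of Fcgr4 and MC38 macrophages 197 CPM. Mmp8 is among the neutrophil markers and also among the leading genes of the F13a1-led cluster, 92.9% of which passed the classical gate. The neutrophil sum is therefore not a measure of neutrophil RNA alone. The part of neutrophil or macrophage RNA in the Fcgr4 difference was not tested.

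Kupffer cells held most Fcgr4 per UMI of all gated classes, at 512 CPM (375 to 683) in control and 406 CPM (360 to 457) in MC38 livers, a ratio of 0.79 (0.58 to 1.11). With the limit of 30% these were 449 and 430 CPM. The macrophage gate went the other way from monocytes, with 365 CPM from 27 UMIs in 17 control barcodes and 197 CPM in 652 MC38 barcodes, a ratio of 0.54 (0.37 to 0.82). Of those 17 control barcodes 64.7% lay in the Kupffer cluster led by Clec4f, Vsig4 and Marco, against 14.0% of the MC38 macrophage barcodes. With the limit of 30% the macrophage values were 265 CPM (75 barcodes) and 197 CPM (823 barcodes).

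Fcgr4 over monocytes and macrophages together was at 96.3 and 127 CPM, a ratio of 1.32 (1.22 to 1.43). With a stricter gate its log2 ratio turned from 0.40 to −0.18, and with barcodes thinned to 1000 UMIs to −0.03. The share of barcodes with an Fcgr4 UMI after thinning to 1000 UMIs was nevertheless 8.16% in control and 11.7% in MC38 livers. Neutrophils held 208 CPM of Fcgr4 in the MC38 library, and mast cells or basophils 0 UMIs in both libraries, which at 3 UMIs per library allows up to 9.78 and 5.69 CPM. In cDC2 Fcgr4 went from 13.7 to 38.0 CPM and in cDC1 from 3.38 to 23.6 CPM, in each case below the T gate at 40.7 CPM with the tumor and above the Dapl1-led T cell cluster at 8.50 CPM. The Ighg3-led T cell cluster held 27.04 CPM (17.3 to 40.2) with the tumor. That is above the cDC1 level (17.1 to 31.7) and below the cDC2 level (28.7 to 49.4), and the intervals overlap in both cases. In the cDC1 cluster led by Xcr1 the Fcgr4 levels were 12.6 and 16.4 CPM, a ratio of 1.30 (0.64 to 2.69) where the gate gave 6.98. NK cells (2 and 8 UMIs) and pDC (3 and 11 UMIs) were past the fold on counts too low to read against that level.

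Fcgr1 (ENSMUSG00000015947, GRCm38 chromosome 3, 96282909 to 96293969, minus strand) encodes the high-affinity receptor, which binds monomeric IgG2a. It had the lowest ratio of the 3 activating receptors in classical monocytes: classical monocytes were at 153 CPM (142 to 165) in control and 187 CPM (182 to 192) in MC38 livers, a ratio of 1.22 (1.13 to 1.32). Nonclassical monocytes stood lower, at 96.6 and 139 CPM, a ratio of 1.44 (1.23 to 1.69). Neither was past the 1.5-fold limit.

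Macrophages had 257 CPM of Fcgr1 (154 to 401) in control and 221 CPM (211 to 232) in MC38 livers. Kupffer cells had 212 CPM (127 to 330) and 193 CPM (161 to 229), levels whose intervals overlapped between libraries and between these classes. The joined class was at 133 and 190 CPM, a ratio of 1.43 (1.34 to 1.53). With a mitochondrial limit of 30% the log2 ratio of 0.52 became 0.75, past the fold, and with a limit of 5% it became 0.17.

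Fcgr1 was near 0 in NK cells, pDC, B cells and neutrophils. NK cells had 1 and 2 UMIs, pDC 0 and 3, B cells 0 and 10, and neutrophils 0 and 2 UMIs. In cDC2 it was at 30.01 and 55.7 CPM, a ratio of 1.86 (1.33 to 2.6) and above the T gate in both libraries. In cDC1 it was at 1.93 and 17.7 CPM, below the T gate in both libraries and above the T cell clusters with the tumor. Neutrophils of the MC38 library, at 728 CPM of Fcgr3 and 208 CPM of Fcgr4, thus had almost no Fcgr1.

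Promoters of Fcgr1 and Fcgr4 are shown because Fcgr4 had the highest ratio of the members in classical monocytes and Fcgr1 was highest in a cluster led by the interferon-induced gene Cxcl10. Each is the 250 bases before the RefSeq start on GRCm38.p6, written along the gene's strand, and capitals mark matches to any of 4 motifs searched on both strands. The Fcgr1 window is chr3:96293970-96294219 (minus strand) and the Fcgr4 window chr1:171018676-171018925 (plus strand).
Fcgr1: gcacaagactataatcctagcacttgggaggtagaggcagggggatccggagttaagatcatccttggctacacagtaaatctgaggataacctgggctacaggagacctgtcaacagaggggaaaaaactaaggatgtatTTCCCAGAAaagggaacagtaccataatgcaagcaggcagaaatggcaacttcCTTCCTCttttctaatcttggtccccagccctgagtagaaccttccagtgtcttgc
Fcgr4: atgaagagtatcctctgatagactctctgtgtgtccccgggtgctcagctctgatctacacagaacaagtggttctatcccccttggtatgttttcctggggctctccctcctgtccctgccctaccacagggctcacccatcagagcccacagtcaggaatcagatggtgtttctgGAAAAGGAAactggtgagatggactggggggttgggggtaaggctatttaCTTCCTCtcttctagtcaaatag
The Fcgr1 window holds TTCNNNGAA, the core of an interferon gamma activated site, 109 bases before the start, letters found in 7.02% of 32851 promoters. The Fcgr4 window holds GAAANNGAA, the core of an interferon response element, 73 bases before the start, found in 7.13% of promoters. GAGGAAG, the core bound by the myeloid factor PU.1, lies in both windows on the opposite strand, 56 and 23 bases before the starts, and in 10.6% of promoters. TTGCNNAA, a C/EBP core, was matched in neither and in 9.56% of promoters. The capital stretches do not overlap each other, and a match describes letters and not a bound site. The windows of Fcgr2b and Fcer1g matched none of the 4 motifs, and those of both Fcgr3 starts matched GAGGAAG and TTGCNNAA.

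The inhibitory receptor gene Fcgr2b (ENSMUSG00000026656, chromosome 1, 170958617 to 170976547, minus strand) moved with Fcgr3 in monocytes. Classical monocytes were at 149 CPM (138 to 161) in control and 273 CPM (267 to 278) in MC38 livers, a ratio of 1.83 (1.69 to 1.98). Nonclassical monocytes were at 171 and 357 CPM, a ratio of 2.09 (1.87 to 2.34), in the gate where macrophage markers went from 337 to 1568 CPM; MC38 macrophages held 421 CPM. Over monocytes and macrophages together the levels were 159 and 305 CPM, a ratio of 1.92 (1.81 to 2.04), with 63.8% and 84.8% of barcodes holding a UMI, or 15.1% and 25.7% after thinning to 1000 UMIs.

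Macrophages were at 284 CPM of Fcgr2b (21 UMIs in 17 barcodes) and 421 CPM, and at 213 and 411 CPM with the limit of 30%. Kupffer cells stood apart from the macrophages by their low Fcgr2b. They had 66.8 CPM in the control, from 6 UMIs in 2 of 41 barcodes, and 137 CPM in the MC38 library, from 94 UMIs in 17 of 152 barcodes. The ratio of 2.06 had an interval of 0.91 to 5.74. With the limit of 30% the Kupffer levels were 17.1 CPM (10 UMIs in 331 barcodes) and 81.7 CPM (124 UMIs in 469 barcodes), with UMIs in 1.51% and 7.04% of barcodes, and the control level lay below the 18.7 CPM of T cells under the same limit. Erythroid markers in the Kupffer gate summed to 55.7 CPM in the control (2 of 5 at 0) and 3327 CPM in the MC38 library (4 of 5 higher), and their part in the difference was not tested.

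B cells held Fcgr2b at 85.2 CPM (66.3 to 108, 173 barcodes) and 87.6 CPM (77.4 to 98.7, 905 barcodes), a ratio of 1.03 (0.79 to 1.36). In B cells Fcgr2b is known as the only Fc gamma receptor and as a brake on the antigen receptor. With the limit of 30% the B cell levels were 68.1 CPM in 1529 and 73.5 CPM in 2181 barcodes. The other receptors in B cells, 2 and 38 UMIs of Fcgr3, 5 and 19 of Fcgr4 and 0 and 10 of Fcgr1, were below the levels of the T gate.

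Endothelial cells had the highest Fcgr2b level of any class in the control library, 933 CPM (375 to 1922), though from 7 UMIs in 7 barcodes. In the MC38 library they had 341 CPM (228 to 490) from 29 UMIs in 31 barcodes, a level whose interval overlapped that of nonclassical monocytes. Fcgr2b UMIs were seen in 71.4% and 38.7% of endothelial barcodes. With the limit of 30% the levels were 815 CPM (517 to 1223, 18 barcodes) and 401 CPM (307 to 515, 66 barcodes). Fcgr1 had 0 UMIs in endothelial cells of both libraries, which at 3 UMIs per library allows up to 399.8 and 35.3 CPM, and Fcgr3 and Fcgr4 had 0 in control and 2 and 1 UMIs in MC38 livers. With 7 and 31 barcodes the endothelial difference rests on few cells.

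Conventional dendritic cells had overlapping Fcgr2b intervals in the 2 libraries. In cDC2 the levels were 128 CPM (114 to 144) and 134 CPM (116 to 155), a ratio of 1.05 (0.87 to 1.26), and in cDC1 43.0 and 48.8 CPM, a ratio of 1.14 (0.84 to 1.54). The cDC1 level was above the T gate in the control library and below it in the MC38 library. In pDC Fcgr2b was at 22.2 and 38.4 CPM, a ratio of 1.73 (1.1 to 2.7). NK or ILC1 cells went the other way, at 27.3 CPM (35 UMIs) and 10.9 CPM (8 UMIs), a ratio of 0.40 (0.16 to 0.87). Both pDC and NK levels lay below the T gate in each library. Against the T cell clusters the pDC levels and the control NK level were higher, and the MC38 NK level was lower.

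Fcer1g (ENSMUSG00000058715, chromosome 1, 171229572 to 171234365, minus strand) encodes the gamma chain that activating Fc gamma receptors need to reach the surface, and that also serves the IgE receptor, Ncr1 and several C-type lectins. In monocytes its level differed far less between libraries than those of Fcgr3 and Fcgr2b. Classical monocytes were at 2559 CPM (2513 to 2606) and 2613 CPM (2596 to 2631), a ratio of 1.02 (1.0 to 1.04), and nonclassical monocytes at 2908 and 2936 CPM, a ratio of 1.01 (0.98 to 1.04). The joined class was at 2684 and 2611 CPM, a ratio of 0.97 (0.96 to 0.99).

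NK or ILC1 cells were close to monocytes, at 2351 and 2324 CPM, with UMIs in 100% and 98.0% of barcodes. Mast cells or basophils led the MC38 library with 3422 CPM, against 2670 CPM in the control, a ratio of 1.28 (1.18 to 1.39). Kupffer cells were at 2595 and 2056 CPM, a ratio of 0.79 (0.69 to 0.91), and at 2104 and 1967 CPM with the limit of 30%. Below them came cDC2 at 1617 and 1411 CPM, pDC at 1104 and 1022 CPM, and cDC1 at 234 and 262 CPM. Mature dendritic cells were at 416 CPM in 30 control and 251 CPM in 185 MC38 barcodes, a ratio of 0.60 (0.48 to 0.77), and B cells at 34.6 and 64.9 CPM, below T cells at 369 and 581 CPM. Both pDC and NK cells thus held much gamma chain with few Fc gamma receptor UMIs.

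Fcer1g UMIs per activating receptor UMI went from 5.004 to 2.79 in the joined monocyte and macrophage class. In NK or ILC1 cells there were 32.0 and 23.1 Fcer1g UMIs per activating receptor UMI, and in Kupffer cells 2.24 and 1.62. These are ratios of transcripts within a library and do not depend on the scaling between libraries, though the capture of each gene may differ.

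The balance of activating (Fcgr1, Fcgr3 and Fcgr4) to inhibitory (Fcgr2b) UMIs was taken next, since it is a common summary of how a cell is set toward antibody. Over monocytes and macrophages it was 3.38 (3.16 to 3.61) in control and 3.07 (3.01 to 3.13) in MC38 livers. Classical monocytes were at 3.29 and 3.20, with overlapping intervals, and nonclassical monocytes at 3.46 and 2.88. Both sides of the balance were therefore higher with the tumor, and the ratio itself differed by less than the levels did, and the intervals of the joined class do not overlap. They do overlap with classes from clusters, at 3.20 (3.0 to 3.41) and 3.06 (3.01 to 3.12), and with doublet calls kept, at 3.29 (3.09 to 3.51) and 3.09 (3.04 to 3.15). Fcgr2b made up 22.8% of the receptor UMIs of the joined class in control and 24.6% in MC38 livers.

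Several other classes had another balance. Kupffer cells were at 17.3 (7.70 to 48.3, on 6 Fcgr2b UMIs) in control and 9.23 (7.46 to 11.6) in MC38 livers. With the mitochondrial limit of 30% these were 59.4 (32.1 to 124.5) and 14.5 (12.1 to 17.5), and in the Clec4f-led cluster 25.4 (12.1 to 64.2) and 5.83 (5.13 to 6.65), intervals that no longer overlap. That cluster also held 11 control and 91 MC38 barcodes of the macrophage gate, whose part was not tested. NK or ILC1 cells were at 2.69 (1.80 to 4.08, on 35 Fcgr2b UMIs) and 9.25 (4.46 to 22.2, on 8 Fcgr2b UMIs). With the tumor NK Fcgr3 lay below the T gate and above the T cell clusters, and NK Fcgr2b lay below both. B cells were at 0.10 and 0.25, and endothelial cells at 0 and 0.10. In cDC1 the balance was 0.18 and 2.22 and in cDC2 0.62 and 1.70, from activating UMIs of 16 and 202 in cDC1 and 181 and 336 in cDC2. The cDC1 balance was 0.41 and 2.11 with classes from clusters, and 0.40 and 2.16 with the limit of 30%. T cells, which should hold few receptor transcripts, were at 1.49 and 2.88. Fcgr2b made up 84.8% of cDC1 receptor UMIs in control and 31.1% in MC38 livers.

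**Figure D3:**
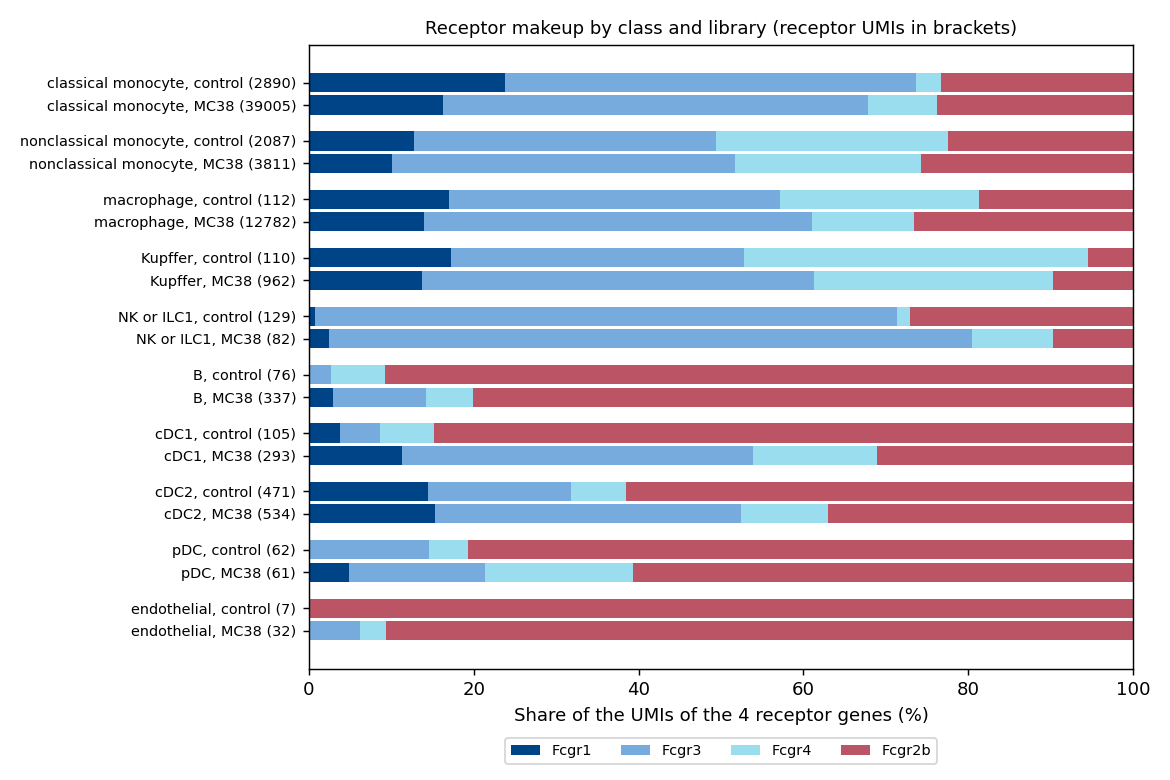
Share of the UMIs of the 4 receptor genes taken by each gene (percent, x axis) in 10 gated classes of each library, with the receptor UMIs counted in brackets. Monocytes and macrophages hold 18.8% to 26.6% Fcgr2b, B and endothelial cells at least 80.1%, and Kupffer cells 5.45% and 9.77%; 4 classes rest on under 100 receptor UMIs in a library.

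Single barcodes held both kinds of receptor more often in the MC38 library. After thinning to 3000 UMIs, 28.2% (24.1 to 32.6) of 447 control and 46.5% (44.6 to 48.3) of 2807 MC38 classical monocytes had UMIs of an activating receptor and of Fcgr2b. Among nonclassical monocytes the shares were 23.4% (18.4 to 29.0) and 57.1% (50.7 to 63.4), and 61.4% of 570 MC38 macrophages had both. Classical monocytes with no receptor UMI at that depth were 21.0% and 6.84%, and nonclassical 17.2% and 4.49%. In cDC2 the share with both was 7.98% and 13.0%, with overlapping intervals, and in T cells it was 0.88% and 4.66%.

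**Figure D4:**
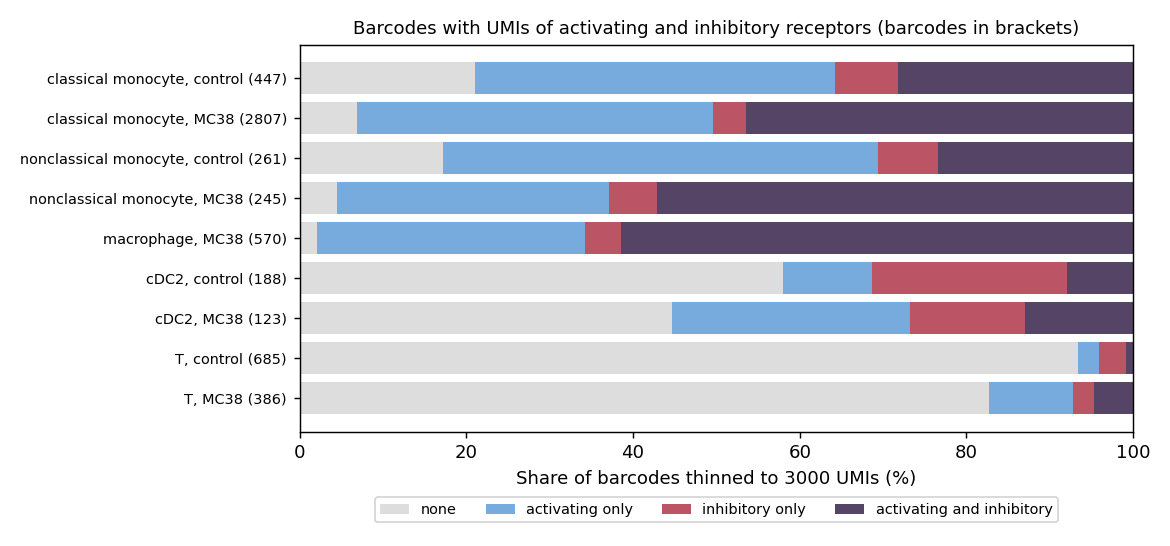
Barcodes thinned to 3000 UMIs by which receptor UMIs they held (percent of barcodes, x axis), for classes and libraries with enough barcodes, whose number is in brackets. The dark segment, activating with inhibitory UMIs, is 28.2% and 46.5% of classical and 23.4% and 57.1% of nonclassical monocytes in the control and MC38 libraries.

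Clusters built without the 5 genes gave a second view of how they vary among monocytes and macrophages. Fcgr1 was highest in a cluster led by Cxcl10, Cxcl9 and Ly6i, genes known to be induced by interferon gamma, at 420 CPM (379 to 465) in 91 control and 338 CPM (311 to 366) in 139 MC38 barcodes. In the Ace-led cluster Fcgr1 was at 109 CPM in 636 control barcodes and 317 CPM in 58 MC38 barcodes. Within the Cxcl10-led cluster Fcgr1 thus had a ratio of 0.80 (0.71 to 0.92), short of the 1.5-fold limit. Within the Ace-led cluster Fcgr1 was higher in the MC38 library, a ratio of 2.91 (2.43 to 3.46). The classical-gate barcodes of the Ace-led cluster went from 112 CPM (366 barcodes) to 390 CPM (33 barcodes). Its nonclassical-gate barcodes were at 99.3 CPM (211 barcodes) and 113 CPM (15 UMIs in 20 barcodes).

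The other receptors were higher in the MC38 library within both of these clusters, except Fcgr2b in the Ace-led cluster, which fell short of the 1.5-fold limit. Within the Cxcl10-led cluster Fcgr3 went from 292 to 687 CPM, a ratio of 2.36 (2.06 to 2.70), Fcgr4 from 84.3 to 264 CPM, and Fcgr2b from 194 to 394 CPM. Within the Ace-led cluster Fcgr3 went from 319 to 518 CPM, a ratio of 1.62 (1.42 to 1.85), Fcgr4 from 91.6 to 240 CPM, and Fcgr2b from 166 to 240 CPM, a ratio of 1.45 (1.19 to 1.75). Fcer1g had ratios of 1.03 and 1.02 there.

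Clusters found mainly in the MC38 library differed among themselves. The cluster led by Cd14, Spp1 and Thbs1 (419 barcodes) had the most Fcgr3, 916 CPM, and the most Fcgr2b, 541 CPM, of the monocyte and macrophage clusters drawn. The cluster led by F13a1, Vcan and Chil3 had the least of both in that library, 496 CPM of Fcgr3 and 162 CPM of Fcgr2b, and 61.6 CPM of Fcgr4. The Htra3-led cluster was at 660 CPM of Fcgr3, 200 CPM of Fcgr4 and 393 CPM of Fcgr2b. A cluster of 74 barcodes led by Saa3, Prg4 and Alox15 had 62.0 CPM of Fcgr1, the lowest of these, beside 857 CPM of Fcgr3. The Clec4f-led cluster, of which 49.3% passed the Kupffer gate, also held 11 control and 91 MC38 barcodes of the macrophage gate. Their part in its values was not tested. It had Fcgr4 at 502 CPM in 56 control and 323 CPM in 307 MC38 barcodes, a ratio of 0.64 (0.50 to 0.84), where the Kupffer gate gave 0.79. Fcgr2b in that cluster went from 48.1 CPM (7 UMIs) to 209.8 CPM, a ratio of 4.36 (2.09 to 10.9), where the gate gave 2.06. Fcgr3 there had a ratio of 1.40 (1.1 to 1.82), short of the fold that the gate passed.

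**Figure D5:**
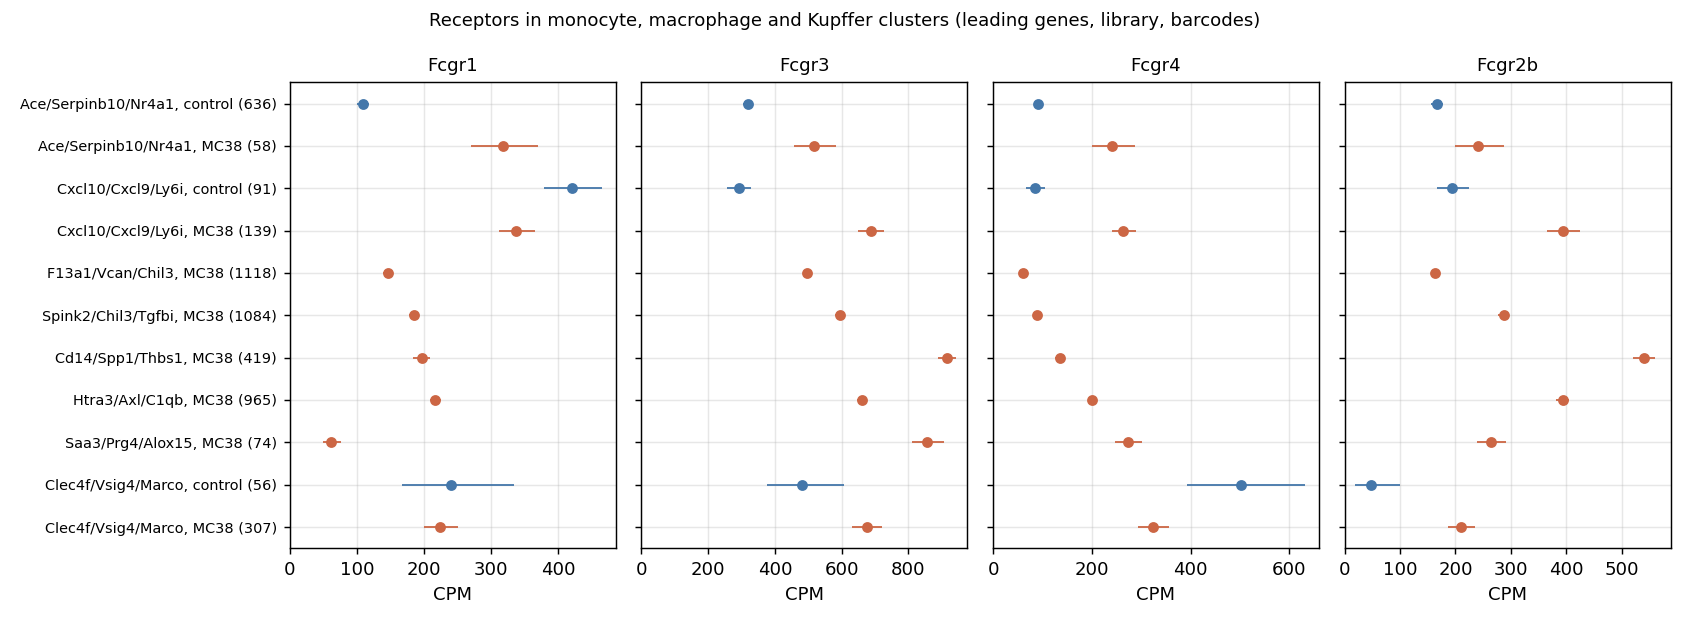
Level (CPM) of the 4 receptor genes in 8 monocyte, macrophage and Kupffer clusters, named by leading genes with the library and number of barcodes; blue is the control, orange the MC38 library, and bars are exact 95% counting intervals. Fcgr1 peaks in the Cxcl10-led cluster at 420 and 338 CPM, Fcgr2b in the Cd14-led cluster at 541 CPM and Fcgr4 in control barcodes of the Clec4f-led cluster at 502 CPM.

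Genes around the receptors were counted next in the joined monocyte and macrophage class, where the median log2 ratio over 13238 measured genes was −0.01. Of 17 measured kinases and activating signaling genes, 0 were higher and 4 lower, with a median log2 ratio of −0.21, beside 11% of all measured genes higher and 13.4% lower, the shares to set beside each list here. The kinase Fyn went from 64.9 to 22.3 CPM and the protein kinase C gene Prkcd from 411 to 210 CPM. Of 9 inhibitory phosphatases and adaptors, 2 were higher and 1 lower, with a median of −0.02: the adaptor Dok2 went from 19.1 to 59.7 CPM, Sla, an adaptor that limits receptor signaling, from 140 to 296 CPM, and the ubiquitin ligase Cblb from 37.6 to 16.8 CPM. Of 3 adaptors like Fcer1g the T cell receptor chain gene Cd247 was lower, with 4.51 and 2.77 CPM, in a class where T cell markers summed to 133 and 63.7 CPM, all 6 lower.

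The list drawn up for receptors that pair with the gamma chain had 2 of 7 measured members higher, 0 lower and a median of −0.11. It counts Pilrb1 and Pilrb2 (ratios of 0.81 and 0.87), whose pairing with the gamma chain these data do not show. The 2 higher members were the C-type lectins Clec4n, known as dectin-2, from 26.5 to 110 CPM, and Clec4d from 29.2 to 46.2 CPM. Immunoreceptors with an ITIM, the class of Fcgr2b, had 4 of 13 higher and 3 lower, with a median of 0.24. Cd300lf went from 22.4 to 151 CPM and the sialic acid receptor Siglece from 16.4 to 58.8 CPM, while Clec12a went from 238 to 131 CPM and Cd72 from 9.29 to 4.39 CPM.

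Of 9 other immunoglobulin receptors 1 was higher and 5 lower, with a median of −0.31. Fcrlb had 0 and 52 UMIs, and the B cell genes Fcrla (6.69 and 1.45 CPM) and Fcer2a (3.55 and 0.96 CPM) were lower where the 6 B cell markers summed to 75.7 and 31.2 CPM, all 6 lower. Of 7 complement receptor genes 2 were higher and 1 lower, with a median of −0.08. C3ar1 went from 5.46 to 102 CPM, C5ar1 from 16.3 to 105 CPM, and Itgb2, the shared beta chain, from 444 to 293 CPM. Neutrophil markers, a sum that is not of neutrophil RNA alone, went from 208 to 3799 CPM in the joined class. Its macrophage barcodes were 17 in control and 652 in MC38 livers. The part of neutrophil RNA and of macrophage barcodes in the genes that were higher in any of these lists was not tested. Of 12 regulators of Fc receptor transcription 2 were higher and 3 lower, with a median of −0.38. The interleukin-4 receptor chain gene Il4ra went from 48.6 to 154 CPM and Tgfbr1 from 71.0 to 137 CPM, whereas the interferon-induced transcription factor gene Irf1 went from 173 to 112 CPM.

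Likeness of pattern was described over 25 points, each a class in a library with at least 50 barcodes, by Pearson's r of log2(CPM + 10) among 11816 genes. Nearest to Fcgr1 were Lrp1 (0.98), Ms4a6d (0.96) and Nupr1 (0.94). Nearest to Fcgr3 were Pgd (0.93), Itgam (0.93) and Slc16a3 (0.92), and nearest to Fcgr4 were Pilra (0.95), Pla2g7 (0.93) and 3110082I17Rik (0.92). For Fcgr2b the values were lower, with Slc43a2 at 0.88 and Lyl1 at 0.86 among the nearest. For Fcer1g the nearest were Tyrobp (0.95), the other main ITAM adaptor of myeloid and NK cells, Cd244 (0.89) and Abr (0.89). Among the members Fcgr1 and Fcgr4 were most alike (0.79), then Fcgr3 and Fcer1g (0.78), and Fcgr4 and Fcer1g least (0.46). The points share libraries and depth, so these values are descriptions.

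Fcgr2b, Fcgr4, Fcgr3 and Fcer1g lie in that order within 275.7 kb of chromosome 1, and Fcgr1 lies on chromosome 3. The genes Fcgr2b and Fcgr3 share sequence: 166 of the 1627 windows of 50 bases in Fcgr3 transcripts (10.2%) also occur in Fcgr2b transcripts, while no other pair of members shares a window. Of the windows in the first 500 bases of their transcripts, 11.7% of those of Fcgr3 and 6.98% of those of Fcgr2b were shared. How reads from such stretches were counted is not given by the labels or headers. The Fcgr2b and Fcgr3 counts are therefore uncertain by an amount that these shares of windows do not measure. Fcgr2b also overlaps Gm38204, annotated on the opposite strand. Fcgr3 overlaps Mir6546 and Fcgr4 overlaps Gm26110, each annotated on the same strand as the member, and Fcgr1 and Fcer1g overlap no other annotated gene.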

How the data were processed

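Per the labels, liver mononuclear cells of 3 pooled mice per group were profiled with a 10x 5' kit. Per the submitters' processing notes, Cell Ranger 2.2, STAR, bcl2fastq, Seurat 2.3.4, R 3.6.0 and GRCm38.p6 were used, in roles not given there; the matrix headers name version 3.0.2 of the 10x software. The deposited values are raw UMI counts per gene and barcode, 1 matrix per library, and the authors' cell types were not used here.

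Barcodes needed 200 genes or more and no more than 10% mitochondrial UMIs, and scrublet doublet calls (617 control, 1727 MC38) were removed, at a rate of 0.008 per 1000 barcodes. A class score was the mean over its markers of the scaled level, capped at the 90th percentile of positive barcodes. A barcode entered a class at a score of 0.2, 1.5 times that of the next family, with 2 markers and 3 marker UMIs, while Kupffer cells were taken first at 0.1. No margin was asked among monocytes, macrophages and Kupffer cells, and 78 control and 361 MC38 barcodes lay near the score limit. Gate thresholds were set on markers after seeing marker data. For description and as an alternative, 28 Leiden clusters were built without the members (2000 variable genes, 30 components, 15 neighbours, resolution 1).

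UMIs were summed by class and library and given as CPM, with exact Poisson, exact conditional and Clopper-Pearson intervals at 95%; PCR copies are collapsed by UMIs, and the intervals cover counting error only. Levels of different genes are not scaled by length, since UMIs count transcript ends, and capture may differ between genes. The pooled mice of a group form 1 sample, so no p-value was computed. Genes named outside the members are, per list, up to 2 highest and 2 lowest past the fold by the interval end nearest no difference, and the 3 most alike in pattern; some genes that this rule names are not reported here. Members and lists were chosen with earlier results of these data known. The interval and fold code was tested on simulated data. Python 3.11.15, numpy 2.4.6, scipy 1.17.1, pandas 2.3.3, scanpy 1.11.5, igraph 0.11.9 and matplotlib 3.10.9 were used. Alternatives were other mitochondrial limits, a stricter gate, clusters as classes, at least 500 genes, doublet calls kept, thinning to 1000 UMIs, scaling by the median ratio and a mean over barcodes.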

Additional observations from a re-analysis of the deposited data

Results flagged for a closer look

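Fcgr2b moved in opposite directions between classes, a difference that was not tested, since each group is 1 library. Its log2 ratio of MC38 over control was 0.87 in classical and 1.07 in nonclassical monocytes and 0.79 in pDC, whereas it was −1.33 in NK or ILC1 cells. The NK value rests on 35 control and 8 MC38 UMIs, and the NK and pDC levels lay below the T gate in both libraries. Against the T cell clusters alone the pDC levels and the control NK level were higher and the MC38 NK level lower.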

How the results depend on the processing

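Over monocytes and macrophages the log2 ratio of Fcgr3 (1.01 as reported) lay between 0.89 and 1.1, and that of Fcgr2b (0.94) between 0.84 and 1.03, under every alternative run. With classes from clusters the log2 ratios were −0.076 for Fcer1g, 0.34 for Fcgr1, 0.84 for Fcgr2b and 0.56 for Fcgr4. At a mitochondrial limit of 30% they were 0.012 for Fcer1g, 0.75 for Fcgr1, 1.09 for Fcgr3 and 0.28 for Fcgr4. At 5% they were −0.096, 0.17, 0.94 and 0.16 in the same order. Without a limit they were 0.017 for Fcer1g, 0.74 for Fcgr1, 1.03 for Fcgr2b, 1.095 for Fcgr3 and 0.26 for Fcgr4. With the stricter gate they were −0.11 for Fcer1g, 0.41 for Fcgr1, 0.93 for Fcgr3 and −0.18 for Fcgr4, and the activating to inhibitory ratio was 4.03 for control and 3.3 for MC38. Scaling by the median ratio gave 0.030 for Fcer1g and 1.08 for Fcgr3, and thinning gave 0.89 for Fcgr3 and −0.026 for Fcgr4. The sign of Fcgr4 and of Fcer1g (0.40 and −0.04 as reported) thus depended on the setting; the cause was not tested. Elsewhere Fcer1g in mature dendritic cells turned from −0.73 to 2.22 at the 5% limit, which left 6 control and 93 MC38 barcodes. Fcgr2b in pDC turned from 0.79 to −0.62 at the 5% limit, on 1 UMI in each library (4 and 5 barcodes). After thinning the pDC value was −0.88, though 1.82% of 274 control and 3.97% of 126 MC38 barcodes held an Fcgr2b UMI at that depth. These pDC sign changes rest on too few UMIs to read. Of 65 alternative values for the joined class 38 moved less than the counting interval (for counts of genes, stayed within 1.5 times) and 27 more; of 598 others 488 did not move beyond it, 107 did, and in 3 a difference past the fold changed sign; smaller differences near 0, such as Fcer1g in the monocyte gates, also changed sign. Leaving out the shared barcode sequences was added after seeing the data. No paired analysis was possible because each group is 1 library. Endothelial cells had no cluster of their own name, so no value from clusters.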
